A study of Mus musculus with 8 samples.

Results

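The genes described here encode potassium channels and their auxiliary subunits. They were chosen by symbol, as Kcn followed by letters and a number, without Kcnj13 and Kcne2, and 90 of the 46517 genes in the bulk RNAseq table met the rule. Of these, 89 were also in the snRNAseq table of 24051 genes, where Kcna7 was not. Kcnj13 and Kcne2 are counted with the choroid plexus markers below, and the members were chosen with earlier results of these data known.

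Potassium channels let potassium leave or enter a cell and so set its resting potential, the length of its action potentials and its firing rate. Voltage-gated (Kv) channels open on depolarization, calcium- and sodium-activated channels open when those ions rise inside the cell, inward rectifiers and two-pore-domain leak channels act near rest, and silent Kv subunits form no channel alone but alter the Kv2 channels they join. In the hippocampus, neurons and glia use different sets of these subunits, and astrocytes are known for buffering potassium through Kcnj10.

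The study compared hippocampi of 12-week-old Gfap-Cre;Wls fl/- mice (mutants) with those of Gfap-Cre;Wls fl/+ mice (controls). Wls is needed for Wnt secretion. Both genotypes carried Gfap-Cre and a floxed Wls allele, so controls kept 1 Wls copy in cells where Cre acted. Gfap-Cre is active in neural progenitors as well as astrocytes, so Wls was not removed from a single adult cell type. Bulk RNAseq and snRNAseq each had 2 mutant and 2 control samples, each from both hippocampi of a single mouse labelled male. With 2 mice per group, p-values measure the spread between these samples only, and an exact permutation test of a single gene cannot go below 0.33.

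Bulk libraries held 56002381 to 79576196 expected counts, and the snRNAseq samples held 5304 to 10460 nuclei with median depths of 4128 to 7544.5 UMIs. Wls was lower in both mutant samples than in both controls, at 3.67 and 6.87 against 13.2 and 13.03 CPM (counts scaled to a library of 1000000) in bulk. In bulk, replicate 2 of each genotype went against the male label, with Xist at 230 and 518 CPM and the Y-linked Ddx3y at 0.352 and 0.341 CPM, whereas no snRNAseq sample did. Dentate granule cell nuclei (GC, the authors' name for DGCs) numbered 90 and 463 in mutants against 2336 and 2007 in controls, or 1.7% and 4.43% against 36.1% and 27.9% of nuclei. Mossy cells (MC) were few in every sample, with 27 and 89 nuclei in mutants and 38 and 32 in controls. Pairs of snRNAseq samples shared 8 to 21 barcodes. The DGC markers were highest in GC, but the mossy cell list was highest in OPC and the CA1 list in excitatory neurons 7. The types named inhibitory neurons 14 and excitatory neurons 19 carried meningeal markers, at 2425 to 3573 and 652 to 1622 UPM (UMIs scaled to 1000000 UMIs of the type), and are called here by number only.

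Among the members, 5 had a bulk adjusted p under 0.05 between genotypes in the main edgeR fit (described below with their values and limits). For the 4 of them with a RefSeq entry, the 250 bases before the transcript start are shown. They are on GRCm38.p6, written 5′ to 3′ on the strand of the gene, and capitals mark matches, on either strand, to an E-box (CACGTG), a GC box (GGGCGG, or CCGCCC on the other strand) or a TATA box (TATAAA). The matches in capitals do not overlap each other. The start is that of the transcript in the RefSeq table, and against the gene bounds given below all 250 bases of Kcnc4 and 164 of those of Kcnh4 lie inside the gene.
Kcnh4, chr11:100759779-100760028, minus strand: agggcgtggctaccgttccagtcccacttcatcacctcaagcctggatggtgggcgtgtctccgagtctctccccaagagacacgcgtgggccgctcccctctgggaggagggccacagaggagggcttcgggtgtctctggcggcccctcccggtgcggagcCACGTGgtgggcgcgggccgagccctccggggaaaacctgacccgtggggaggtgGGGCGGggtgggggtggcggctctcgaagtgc
Kcnc4, chr3:107458899-107459148, minus strand: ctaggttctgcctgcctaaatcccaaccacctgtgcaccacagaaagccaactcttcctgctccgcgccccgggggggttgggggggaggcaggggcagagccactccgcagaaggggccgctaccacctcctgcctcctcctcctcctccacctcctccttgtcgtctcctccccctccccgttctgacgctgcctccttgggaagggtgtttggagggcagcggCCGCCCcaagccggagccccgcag
Kcnj2, chr11:111065914-111066163, plus strand: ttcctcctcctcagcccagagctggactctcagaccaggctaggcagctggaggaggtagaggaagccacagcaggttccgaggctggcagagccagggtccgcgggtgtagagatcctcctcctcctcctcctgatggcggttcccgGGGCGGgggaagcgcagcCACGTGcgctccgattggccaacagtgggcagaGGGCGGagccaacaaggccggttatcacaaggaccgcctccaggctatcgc
Kcnj9, chr1:172329323-172329572, minus strand: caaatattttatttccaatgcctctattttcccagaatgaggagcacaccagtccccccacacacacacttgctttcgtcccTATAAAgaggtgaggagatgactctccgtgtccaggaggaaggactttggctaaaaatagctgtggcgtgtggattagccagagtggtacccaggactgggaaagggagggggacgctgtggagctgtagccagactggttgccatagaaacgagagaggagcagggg
The promoters of Kcnh4 and Kcnj2 each held 1 E-box, those of Kcnh4 and Kcnc4 1 GC box and that of Kcnj2 2 GC boxes, while the Kcnj9 promoter held 1 TATA box and no GC box. Neither CAGATG nor TGACGTCA, also searched, had a match in the 4. Over all 32851 promoters of this length, 6.02% held the E-box, 32.7% the GC box and 12.4% the TATA box. Among the 89 promoters of the 65 members with an entry, the shares were 6.74%, 44.9% and 2.25%. A match of letters is a description and not evidence of binding.

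Levels in bulk were compared between genes per length, as TPM averaged over the 4 libraries. Of the 90 members, 69 reached 1 TPM, 45 reached 10 TPM and 5 reached 100 TPM. Among these 5 were Kcnab2 (557 TPM) and Kcnab1 (117 TPM), cytoplasmic beta subunits of Kv1 channels, and Kcnip2 (226 TPM), a calcium-binding partner of Kv4 channels. So 3 of the 5 most abundant members encode auxiliary subunits and not pores. Elsewhere the leading member of a family was the astrocytic inward rectifier Kcnj10 (91.8 TPM), the small-conductance calcium-activated channel Kcnn2 (74.2 TPM), the BK-channel beta subunit Kcnmb4 (66.2 TPM), the leak channel Kcnk1 (63.2 TPM), Kcnd2 of the A-type current (61.2 TPM) and the axonal Kcna1 (43.9 TPM). Lower still were the leading Kcnh3 (38.6 TPM), the silent subunit Kcng2 (22.0 TPM) and Kcne4 (0.61 TPM).

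In nuclei, 64 of the 89 members reached 20 UPM in at least 1 type of the control samples, and 22 of them were at least 1.5 times higher there than in the next type. As clusters were made from the same nuclei, these profiles are a description with no test. Granule cells had the highest level of 8 members. Among them Kcng1, a silent subunit, was at 92.5 and 109 UPM in the GC of the 2 controls against a mean of 56.6 UPM in MC, the next type. Kcng2, Kcnj3, Kcnj4, Kcnj6, Kcnc4 and Kcnip2 were also highest there, with the next type closer. In control means, Kcnip2 was at 154 UPM in GC and 148 UPM in CA3, and Kcnc4 at 53.2 UPM and 49.1 UPM in excitatory neurons 8. Kcnj3 was at 516 UPM and Kcnj4 at 52.5 UPM, against 478 and 44.6 UPM in excitatory neurons 7. Kcng2 (81.1 UPM) and Kcnj6 (668 UPM) stood against 60.3 and 545 UPM in CA2. The Kcnj genes encode inward rectifiers.

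Kcnc2, the Kv3 subunit that lets cells fire fast, was highest in inhibitory neurons 5, at 1630 and 1354 UPM against 585 UPM in inhibitory neurons 12. It was not confined to interneuron types, with control means of 581.5 UPM in CA3 and 440 UPM in MC, above 281 UPM in inhibitory neurons 18. The silent subunit Kcns3 was highest in inhibitory neurons 12, at 146 and 134 UPM against 41.6 UPM in inhibitory neurons 5. Kcnmb2, a BK-channel beta subunit, was at 758 and 767 UPM in inhibitory neurons 12 and 720 and 702 UPM in inhibitory neurons 5. The authors used Kcnmb2 and Kcnip1 to name inhibitory clusters, so their level there is not a finding. Among the pyramidal types, CA2 had the highest Kcnv1, a silent subunit, at 85.0 and 45.0 UPM in CA2 against 24.8 UPM in excitatory neurons 8.

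Glia had their own members. Astrocytes had the highest Kcnk1 (259 and 226 UPM against 110 UPM in GC) and Kcnn3, a small-conductance calcium-activated channel (153 and 124 UPM against 60.9 UPM in excitatory neurons 10). Oligodendrocytes led for the Kv1 subunits Kcna1 (276 and 421 UPM against 109 UPM in CA3) and Kcna6 (238 and 222 UPM against 99.4 UPM). Leak channels marked the other glia. Kcnk10 was highest in OPC, at 308 and 300 UPM against 180 UPM, and Kcnk6 in microglia, at 71.6 and 54.1 UPM against 4.57 UPM in the next type. The sharpest profile was that of the leak channel Kcnk5, with 241 and 302 UPM in excitatory neurons 19, one of the types with meningeal markers, against 4.71 UPM in oligodendrocytes. The highest type was the same in each control alone for 52 of the 64 members, and in the mutants for 44.

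**Figure D1:**
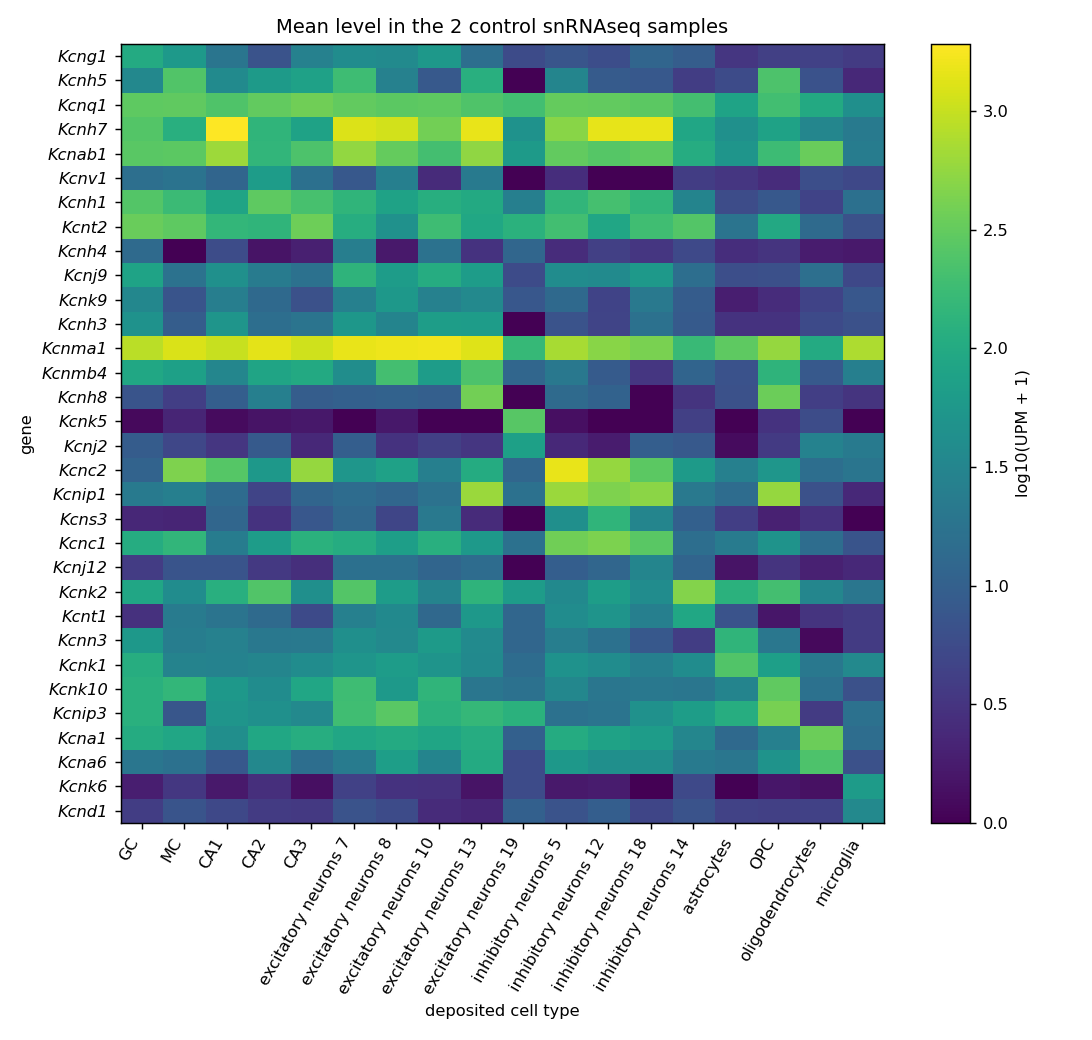
Levels of the members that led a cell type, with genes in rows and deposited cell types in columns, coloured by log10 of (mean UPM + 1) in the 2 control snRNAseq samples. Kcnk5 in excitatory neurons 19 and Kcnk6 in microglia stand alone, while Kcng1 peaks in GC.

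To ask whether channel transcripts differed between genotypes in the whole tissue, the 80 members that passed the filter on low counts were compared within a fit of 20687 genes by the quasi-likelihood test of edgeR, with p adjusted by Benjamini-Hochberg (FDR). The 10 others held few reads (1 to 37 in all 4 libraries). Kcng1 and Kcnh4 fell past the thresholds of FC above 3 and FDR below 0.05, or 2 of 80 members against 0.198% of all genes, and 0 members rose past them (background 0.0193%). At an unadjusted p under 0.05, 21 members were lower (9.94% of all genes) and 13 higher (8.86%). At FC above 3 and FDR below 0.05, DESeq2 gave 2 lower and 0 higher members, and the share over all genes was not computed. With FDR below 0.05 at any fold, Kcnc4, Kcnj2 and Kcnj9 were also lower in DESeq2. The other members were not counted there in either direction. At that threshold 5.62% of the genes with a DESeq2 FDR were lower and 3.91% higher. Bulk values cannot tell fewer cells of a type from less RNA per cell, and GC nuclei were few in the mutants.

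Kcng1 (chr2:168260117-168281736, minus strand) was at 18.6 and 14.8 CPM in the mutant libraries and 49.8 and 50.6 CPM in the controls, a log2 change of -1.59 (SE 0.12, FDR 0.0206). The silent subunit was thus lower in both mutants than in either control, with nearly equal controls. Kcnh4 (chr11:100740376-100759942, minus strand), an ELK-type voltage-gated channel, was at 0.952 and 0.842 CPM in mutants and 2.80 and 2.67 CPM in controls, a log2 change of -1.61 (SE 0.20, FDR 0.0433). Its groups were also separate, at a low level.

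A further 3 members fell at FDR below 0.05 by less than 3-fold, which makes 5 of 80 against 1.01% of all genes at any fold. The Kv3 subunit Kcnc4 (chr3:107438303-107459552, minus strand) was at 28.2 and 19.3 CPM in mutants and 64.4 and 58.4 CPM in controls (log2 change -1.37, SE 0.18, FDR 0.0466). The classical inward rectifier Kcnj2 (chr11:111066164-111076821, plus strand) was at 9.18 and 8.20 CPM against 16.2 and 16.3 CPM (-0.90, SE 0.11, FDR 0.0408). Kcnj9 (chr1:172320501-172329318, minus strand), a G protein-gated inward rectifier subunit, was at 54.0 and 51.3 CPM against 73.2 and 74.4 CPM (-0.49, SE 0.05, FDR 0.0282). In all 5 genes the groups did not overlap. The calls rest on few libraries. Without control replicate 1 or control replicate 2, none of the 5 kept an FDR below 0.05 (Kcng1 0.165 and 0.234, Kcnh4 0.265 and 0.343), and without mutant replicate 2 Kcng1 (-1.44) and Kcnh4 (-1.53) were under 3-fold. With replicate number as a block, which in bulk follows the Xist split, the FDR was 0.0421 for Kcng1 and 0.0469 for Kcnc4, and the calls of Kcnh4 (0.0803), Kcnj2 (0.0713) and Kcnj9 (0.0621) were lost.

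**Figure D2:**
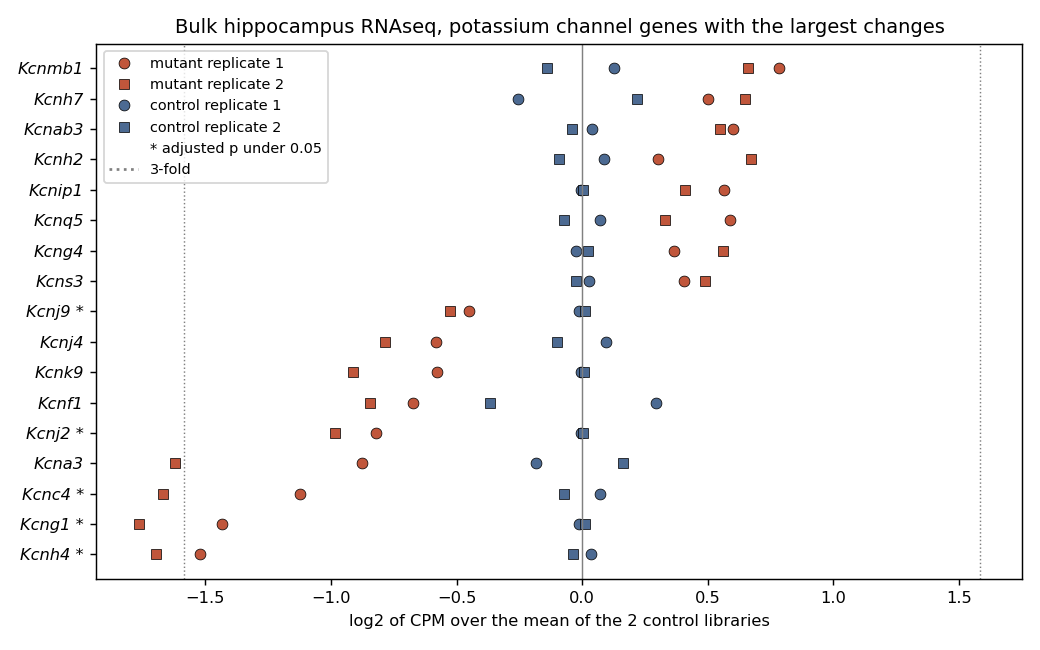
Log2 of CPM over the mean of the 2 control libraries for 17 members with large bulk changes, with 1 point per library, mutants in red and controls in blue, a star at an adjusted p under 0.05 and dotted lines at 3-fold. The mutant points of Kcng1, Kcnh4, Kcnc4 and Kcna3 lie on both sides of the lower line, and no point reaches the upper one.

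Among other members with at least 1 CPM and separate groups, Kcna3 was at 1.85 and 1.11 CPM in mutants and 2.99 and 3.81 CPM in controls (-1.21, FDR 0.138), and the silent subunit Kcnf1 at 20.3 and 18.0 against 39.5 and 25.1 CPM (-0.75, FDR 0.176). Kcnk9, an acid-sensitive leak channel, was at 5.10 and 4.05 against 7.58 and 7.64 CPM (-0.74), and the inward rectifier Kcnj4 at 34.2 and 29.8 against 54.7 and 47.8 CPM (-0.68, FDR 0.0595). Kcng3, outside the naming rule for its low level and added after its values were seen, was at 0.612 and 0.289 against 0.886 and 1.504 CPM (-1.43, FDR 0.212). None of these passed the test.

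On the higher side no member had an edgeR FDR below 0.05. Nearest was Kcnab3, a Kv1 beta subunit, at 29.7 and 28.6 CPM in mutants and 20.1 and 19.1 CPM in controls (0.57, FDR 0.0514). Kcnj13 and Kcne2, which the rule leaves out, had larger rises without passing the test. Kcnj13 was at 4.03 and 27.9 against 0.835 and 0.450 CPM (4.66, FDR 0.115). Kcne2 was at 2.87 and 22.9 against 0.620 and 0.417 CPM (4.65, FDR 0.120). The ERG channels Kcnh7 (68.8 and 76.2 against 40.7 and 56.5 CPM, 0.58) and Kcnh2 (30.9 and 39.9 against 26.6 and 23.5 CPM, 0.50), the M-current subunit Kcnq5 (169 and 142 against 118 and 107 CPM, 0.47) and Kcnip1 (22.3 and 20.0 against 15.0 and 15.1 CPM, 0.49) had both mutants above both controls. So did Kcnmb1 (0.72), Kcng4 (0.47) and Kcns3 (0.45), though Kcnmb1 overlaps Kcnip1 on the other strand. Over the same libraries the inhibitory neuron markers summed to 857 and 892 CPM in mutants and 722 and 709 CPM in controls, the choroid plexus markers to 1341 and 8963 against 454 and 337 CPM, and the DGC markers to 140 and 132 against 499.6 and 506 CPM. The part of these in the channel values was not tested.

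By family, 7 of the 13 tested inward rectifiers had both mutants below both controls and 3 had both above (median log2 change -0.27), and the silent Kv subunits had 6 below and 2 above of 9 (median -0.29). The Kv1 pores had 2 below and 0 above of 6, the EAG, ERG and ELK channels 4 below and 2 above of 8, and the leak channels 3 below and 2 above of 10. The Kv-beta subunits had 0 below and 2 above of 3, and the calcium- and sodium-activated channels 2 below and 4 above of 8. Over all 80 members, 30 had both mutants below (25.4% of all genes) and 22 both above (25.8%), with a median of -0.11 beside 0.01 for all genes. The share above is thus near the background. On deposited TPM the counts were 39 below and 14 above.

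Genes that work with these channels gave 0 calls in either direction among 17 tested of 18 listed, with a median log2 change of -0.01. Both mutants were below both controls for 8 (25.4% of all genes) and above them for 7 (25.8%). At an unadjusted p under 0.05, 5 were lower (9.94% of all genes) and 4 higher (8.86%), and DESeq2 gave 4 lower and 4 higher at FDR below 0.05, beside 5.62% and 3.91% of the genes with a DESeq2 FDR. The BK-channel gamma subunit Lrrc55 was at 6.70 and 5.74 CPM in mutants and 11.9 and 11.0 CPM in controls (-0.88, FDR 0.0605), and Lgi1, a secreted partner of Kv1 complexes, had a change of -0.44 (FDR 0.0562). The sulfonylurea receptors differed in sign, with Abcc8 at -0.53 (FDR 0.0635) and Abcc9 at 0.59 (FDR 0.0925). All 4 Hcn genes, which encode the related pacemaker channels, had both mutants above both controls, led in adjusted p by Hcn2 (0.26, FDR 0.0784).

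The 8 members with their highest level in GC all had both mutant bulk libraries below both controls, with a median log2 change of -0.31. Of the 425 genes of the whole table that were highest in GC, 76.9% were likewise lower in both mutants, beside 25.4% of all genes, and their median was -0.27. Across the 64 members with at least 20 UPM in a type, bulk log2 change was lower where the control GC level was high relative to the other types (Pearson r = -0.61, Spearman rho = -0.68), and rho was -0.44 across 11748 genes. These are correlations across genes, which share libraries and are not independent replicates. Kcnj2, Kcnf1, Kcnh5 and Kcnh8 were among the members outside this order. They had both mutant bulk libraries below both controls and GC levels below the mean of the other types. For Kcnj2 that mean includes 71.9 UPM in excitatory neurons 19, against 7.93 UPM in GC.

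**Figure D3:**
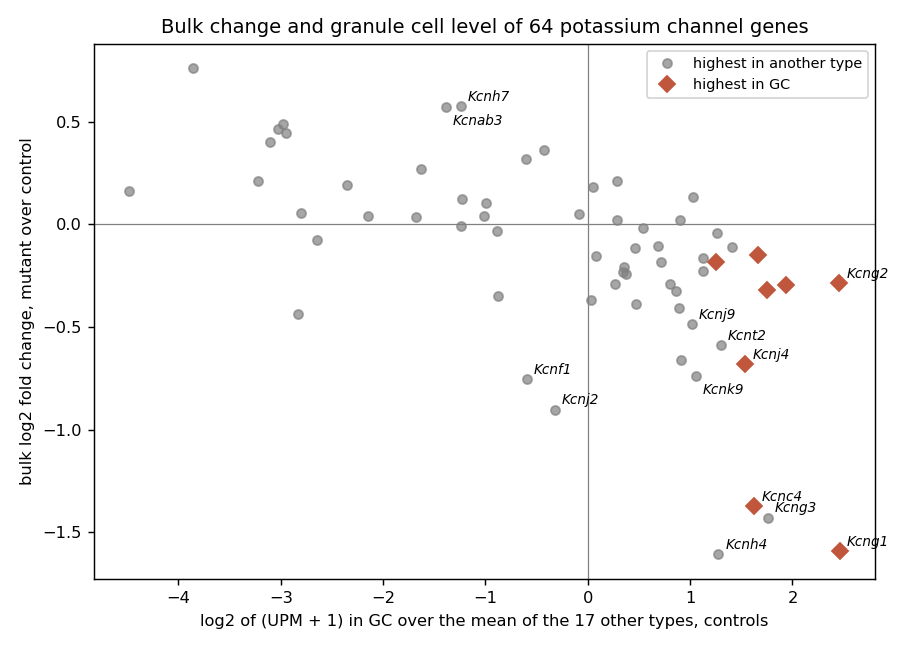
Bulk log2 fold change of 64 members against the log2 ratio of their UPM in GC to the mean of the 17 other types in controls. The 8 members highest in GC (diamonds) all lie below 0, with Kcng1 at the lower right.

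Within GC nuclei, none of the 3 members with at least 1 CPM and the largest bulk falls was called. Kcng1 was at 70.0 and 98.7 UPM in mutant GC and 92.5 and 109 UPM in control GC (-0.16, FDR 0.751), with overlapping groups. Kcnc4 was at 58.0 and 76.2 against 45.4 and 61.1 UPM (0.42, FDR 0.389) and Kcnh4 at 9.66 and 18.1 against 12.1 and 12.9 UPM (0.40, FDR 0.547). Kcng3, under 1 CPM in bulk, was at 29.0 and 41.5 against 25.7 and 24.8 UPM (0.61, FDR 0.217). Over all nuclei of a sample together, Kcng1, Kcnc4 and Kcnh4 were lower in both mutants, while the groups of Kcng3 overlapped. Kcng1 was at 22.3 and 25.8 against 38.1 and 43.5 UPM, Kcnc4 at 16.0 and 17.8 against 20.0 and 24.4 UPM and Kcnh4 at 3.95 and 3.75 against 6.57 and 6.08 UPM.

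Genotypes were then compared within each of the 18 types that held 10 or more nuclei per sample, on UMIs summed per mouse. Of 809 pairs of member and type, 2 were lower and 6 higher at FC above 2 and FDR below 0.05, from 7 members, beside 0.0889% and 0.101% of all pairs of gene and type. GC held most of them, with 4 of 65 tested members higher (background 0.827%) and 1 lower (background 0.64%). Kcnmb2 was at 84.5 and 83.2 UPM in mutant GC and 16.3 and 18.0 UPM in control GC, a log2 change of 2.29 (SE 0.19, FDR 0.00164), from 35 and 285 UMIs in mutants and 185 and 293 in controls. The mutant samples were close to each other and far above both controls. By sign, neither this rise nor that of Kcnk9 below was particular to GC. Kcnmb2 was lower in 1 of the 12 types tested and had both mutants above both controls in 5. For Kcnk9 these counts were 1 of 10 types and 7.

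Kcnk13 and Kcnk9, which also rose in GC, rested on fewer UMIs in mutant replicate 1. Kcnk13, a leak channel also found in microglia (358 and 314 UPM in controls) and oligodendrocytes, was at 14.5 and 39.4 against 4.22 and 8.24 UPM (2.38, SE 0.41, FDR 0.0260), from 6 UMIs in that sample. Its change was 1.15 without mutant replicate 2 and 3.002 without control replicate 2. Kcnk9 stood at the threshold of 2-fold, at 62.8 and 64.2 against 29.4 and 34.5 UPM (log2 change 1.005, SE 0.19, FDR 0.0364). Just outside it was Kcnn3, at 96.6 and 110 against 49.3 and 59.8 UPM (0.96, FDR 0.0399). Kcnc2 was at 86.9 and 25.7 against 8.70 and 11.2 UPM (2.10, FDR 0.0544), with mutants far apart.

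Kcnk1 fell in GC, from 107 and 114 UPM in controls to 48.3 and 40.6 UPM in mutants (-1.36, SE 0.19, FDR 0.0106). Every GC call was lost without mutant replicate 2, which leaves 90 mutant nuclei (Kcnmb2 FDR 0.299, Kcnk1 0.406), and without mutant replicate 1 only that of Kcnmb2 held (FDR 0.0396). Without control replicate 1, Kcnk9 was also lost.

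Other features of GC moved with these values. The ventral DGC markers summed to 106 and 117 UPM in mutants and 34.8 and 39.1 UPM in controls, the dorsal markers to 152 and 110 against 175 and 235 UPM, and the DGC list to 512 and 507 against 569 and 564 UPM. Of the ventral markers, Trhr (60.4 and 56.9 against 6.68 and 7.44 UPM) and Nr2f2 were higher in both mutants. Grp was lower in both, at 14.5 and 12.8 against 17.9 and 21.2 UPM. The excitatory neuron list (Slc17a7, Nrn1, Nrgn and Neurod2) summed to 517 and 554 against 964 and 1010 UPM and the CA2 list to 45.9 and 44.7 against 83.7 and 76.8 UPM, while the CA3 list was at 787 and 954 against 602 and 607 UPM. Microglial markers were at 94.2 and 100.4 against 63.0 and 75.8 UPM, oligodendrocyte markers at 118 and 129 against 100.1 and 102.6 UPM, astrocyte markers at 84.5 and 75.9 against 65.4 and 68.6 UPM, and inhibitory markers at 77.3 and 65.7 against 72.8 and 79.1 UPM. The part of these lists in the GC calls was not tested. In selections added after the data were seen, Kcnmb2 was higher both in GC nuclei with a UMI of the ventral genes Trhr, Grp or Nr2f2 (114 and 109 against 27.9 and 33.3 UPM, 1.87, FDR 0.00215) and in those without one (66.4 and 54.7 against 14.3 and 13.2 UPM, 2.09, FDR 0.00118). The ventral selection takes nuclei with any of these genes, so the gene that admits a nucleus can differ between genotypes. Nuclei without such a UMI (60 and 234 in mutants, 2026 and 1560 in controls) are not a dorsal set, as an expressed gene can lack a UMI. The split therefore cannot separate the Kcnmb2 values from the change in ventral markers. The next 2 selections are drawn from the same GC nuclei and are not independent of the split. Kcnmb2 was also higher in GC nuclei with a Prox1 UMI (2.35) and in those without Gad1, Gad2 or Slc32a1 UMIs (2.32). Kcnk1 was lower in all 4 selections (-1.18 to -1.49), and Kcnk13 missed the threshold in nuclei with a ventral UMI (1.74, FDR 0.0597). Kcnk9 kept its call in 1 of the 4.

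**Figure D4:**
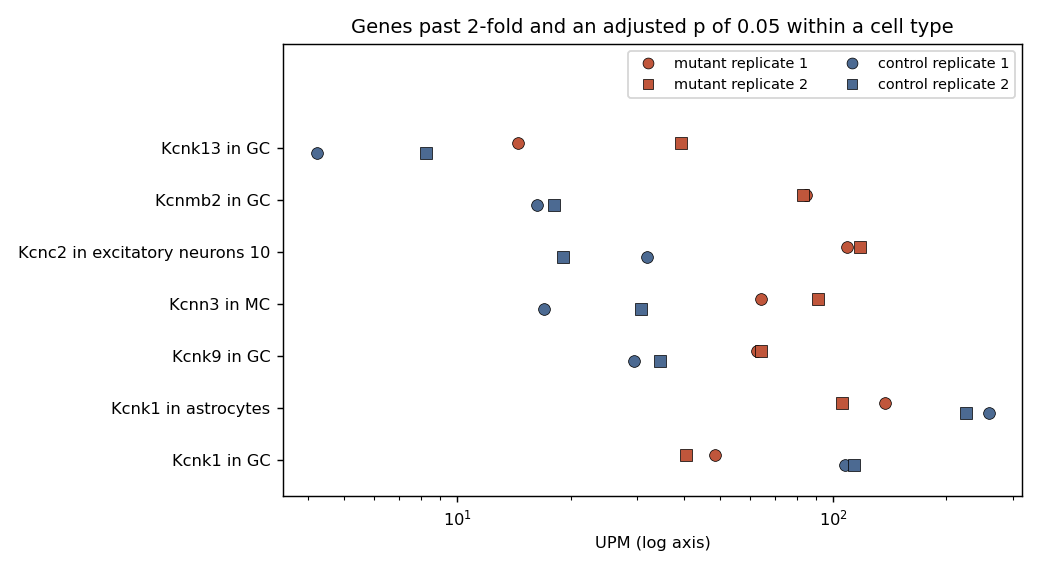
Levels in UPM, on a log axis, of pairs of member and cell type past 2-fold and an adjusted p of 0.05, with 1 point per snRNAseq sample, mutants in red and controls in blue. No pair shown has overlapping groups, and Kcnk1 is the member lower in mutants.

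Outside GC there were 3 calls. In excitatory neurons 10, Kcnc2 was at 108.5 and 118 UPM in mutants and 31.9 and 19.1 UPM in controls (2.17, SE 0.29, FDR 0.0327), 1 of 52 tested members against a background of 0.0482%. It held in each fit that left out a sample, and was lost with the replicate block (FDR 0.106). Kcnc2 rested on 183 and 425 UMIs in mutants and 21 and 10 in controls, with up to 20 from a single mutant nucleus. In MC, Kcnn3 was at 64.3 and 91.2 against 17.04 and 30.7 UPM (1.76, SE 0.38, FDR 0.0495), 1 of 37 tested members against a background of 0.439%, from 7 and 17 UMIs in controls. DESeq2 gave an adjusted p of 0.687, and 3 of the 4 fits that left out a sample lost the call. Kcnk9 had a larger fold in MC, at 26.8 and 35.4 against 4.87 and 7.23 UPM (2.39, FDR 0.101), without passing the test. By sign, neither the Kcnc2 nor the Kcnn3 rise was particular to its type. Kcnc2 was lower in 3 of the 17 types tested, with both mutants above both controls in 6 and below them in 1. Kcnn3 was lower in 2 of 13 types, with both mutants above in 7 and below in 2.

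In astrocytes, where Kcnk1 was highest, it was at 137.5 and 105 UPM in mutants and 259 and 226 UPM in controls (-1.01, SE 0.20, FDR 0.0335), 1 of 45 tested members against a background of 0.253%. This call was lost in 3 of the 4 fits that left out a sample, and DESeq2 gave a change of -0.99, just under 2-fold. Across types the sign was uniform. Kcnk1 was lower in mutants in 14 of 14 types tested, with log2 changes of -0.14 to -1.43, and the groups were separate in 11. In CA3, for example, it was at 22.8 and 21.9 against 36.6 and 39.5 UPM (-0.75, FDR 0.197), and in inhibitory neurons 5 the groups overlapped, at 44.1 and 30.0 against 39.3 and 53.1 UPM. Of 43 members tested in at least 10 types it was the only one lower in all of them, or 2.33% against 5.76% of 9953 genes, so this pattern was not more common in channels than in other genes. The summed excitatory neuron and CA2 lists were likewise lower in both mutants in 14 of these 14 types, astrocytes included, and their part in the Kcnk1 values was not tested. The types share the same 4 mice and are not replicates.

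**Figure D5:**
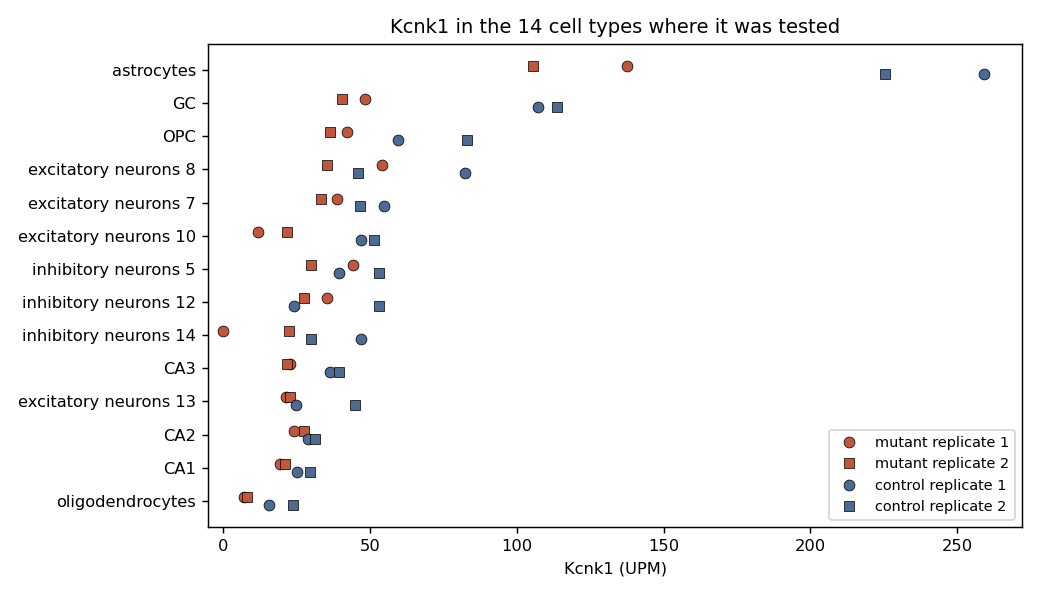
Kcnk1 level in UPM in each tested cell type, with 1 point per snRNAseq sample and mutants in red. Mutant points lie below both controls in 11 of the 14 types, and levels are highest in astrocytes.

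Higher in every type tested were 5 of the 43 members (11.6%, against 4.26% of genes), among them Kcna6, Kcnd3, Kcnip3 and the BK-channel pore Kcnma1. None of the 5 was called in any type. Kcnd3, an A-type channel, was higher in all 17 types in which it was tested but lower in the bulk libraries of both mutants, at 92.6 and 72.9 against 106 and 101 CPM (-0.32, FDR 0.233).

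Bulk tissue and the pooled nuclei of each sample separated the genotypes the same way for 10 members on the lower side, among them Kcng1, Kcng2, Kcnc4, Kcnh4, Kcnip2, Kcnj2, Kcnj4, Kcnj6 and Kcns2, and for 8 on the higher side, among them Kcnc2, Kcnh2, Kcnip1 and Kcnq5, of 80 compared. Of 17114 genes in both tables, 9.28% were lower and 7.89% higher in both assays. They separated them in opposite directions for 4 members, beside 9.67% of all genes. Kcnk9, Kcnn3 and Kcnq3 were lower in bulk and higher in nuclei, and the leak channel Kcnk2 was the reverse. Kcnk1 was separate in nuclei alone, at 29.8 and 27.7 against 62.4 and 63.3 UPM, while bulk gave 56.7 and 73.2 against 72.5 and 73.1 CPM. So was Kcnmb2, at 143 and 152 against 77.8 and 84.5 UPM, with 4.23 and 5.02 against 4.24 and 4.66 CPM in bulk.

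The assays also rank the members differently. Over 69 members, TPM and UPM over all nuclei had a Spearman rho of 0.63, while the log2 ratio of UPM to TPM was higher with larger values of the genomic span of the gene (rho = 0.80). The median ratio was 0.718 for 35 members spanning under 50 kb and 18.2 for 16 spanning at least 200 kb. Both are descriptions across genes, and reads in introns were counted in nuclei. Levels in UPM are therefore compared here within a gene and not between genes.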

How the data were processed

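Bulk RNAseq and snRNAseq each had 2 mutant and 2 control samples, grouped by GEO's labels. For bulk, the authors aligned reads to mm10 with Bowtie2 2.2.9 and RSEM 1.3.0 (per the submitters' processing notes) and deposited for each gene an expected count, TPM, FPKM (not used) and transcript lengths, and a matrix of signal, each expected count divided by a factor of its library. For nuclei, the authors used Cell Ranger 3.1.0 with a pre-mRNA index and deposited UMI counts per nucleus, a size factor (a ratio of total UMIs to their geometric mean, not used) and cell types. Filtering and annotation of nuclei are theirs. Their treatment of doublets is not given in the sources used here, and no doublet caller was run.

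Expected counts were rounded and fitted over all genes with edgeR 4.0.16 (R 4.3.3) after filterByExpr and TMM, with the quasi-likelihood test and Benjamini-Hochberg adjustment. UMIs were summed per sample and type and fitted likewise within each type, with adjustment within the type. EBSeq and Monocle 3, used in the study, were not run. DESeq2 1.42.0 and limma 3.58.1 (pseudocount 1) served as alternatives. SE is the log2 change over the root of F. The bulk fit and those of 17 of the 18 types were checked on simulated counts, and that of microglia was not. In bulk, 192 of 200 genes changed 6-fold were recovered, with 22 false calls. Within types, at 4-fold, recovery was lowest in excitatory neurons 19 (155 of 200, with 19 false calls). GC recovered 200 of 200 with 8 false calls, and CA3 200 with 21. Figures used matplotlib 3.10.9.

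Named are members called in bulk or a type, the 8 largest falls and rises in bulk with separate groups and at least 1 CPM, the most abundant of each family by TPM, the 2 leading members of each type, and partner genes with the largest changes. The text gives those that carry a result, and a few members that the rule names are counted but not reported here. Members and lists were chosen with earlier results of these data known. Types with under 10 nuclei in a sample (CP, EC and inhibitory neurons 15) were not tested.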

Additional observations from a re-analysis of the deposited data

Results flagged for a closer look

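Among the pairs of member and cell type past the thresholds, 2 had mutants on one side of the controls in nuclei and on the opposite side in bulk. Kcnk9 was higher in mutant GC nuclei (log2 change 1.005) and lower in mutant bulk tissue (-0.74). Kcnn3 was higher in mutant MC nuclei (1.76) and lower in bulk (-0.66). The difference between the assays was not tested in either case, the bulk changes did not pass the test, and bulk tissue holds every cell type.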

How the results depend on the processing

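The count of members lower in bulk was 2, and was 1 with the replicate block, 5 at FDR below 0.05 at any fold, and 0 to 5 when each library was left out. In nuclei, the 2 lower calls became 4 and the 6 higher calls 13 with no filter on low counts. With the replicate block the higher calls were 11. Leaving out each sample gave 1 to 5 lower and 1 to 20 higher calls, and in GC 0 to 1 lower and 0 to 6 higher. The highest counts came without mutant replicate 2 or control replicate 2 (5 lower) and without control replicate 2 (20 higher). Members with both mutants above both controls in bulk were 22, and 14 on deposited TPM. No change of sign occurred. Of 129 values of 13 single results under the alternatives, 41 no longer passed the threshold. Kcnk1 in astrocytes (-0.99) and Kcnk9 in GC (0.96) were under 2-fold with the block. Scalings moved the median of all genes by under 0.1. Same-numbered samples deviated together weakly (r = 0.06 in bulk and 0.04 to 0.39 within types), and the labels do not say that a number marks a shared mouse or day. A fit that left out a sample assumed that the lone sample varies like the other group. The cause of these differences was not tested, and mutant GC and MC depth limits every call in those types.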
